A study of Mus musculus with 4 samples.

Results

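The genes described here are 8 genes of platelets and of the megakaryocytes that shed them: Gp1ba, Gp5, Gp9, Itga2b, Itgb3, Treml1, Pf4 and Ppbp. They are 8 of the 27606 genes named on the array, read by 9 of its 41158 gene probes, because Itgb3 has 2 probes. They were chosen from their levels on these same 4 arrays, so every level and difference of theirs below is a description, and no test is attached to it.

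Mouse lungs were dissociated, alveolar type II cells, which make lung surfactant, were sorted from them with a flow cytometer, and their RNA was put on arrays. The 4 groups were wild-type (WT) mice without tumor, WT mice bearing Lewis lung carcinoma, Tlr3-deficient mice without tumor, and Tlr3-deficient mice bearing the same carcinoma. The tumor, a mouse lung carcinoma line, was placed under the skin and grew for 2 weeks, so the lung was not the site of injection. Each group was 1 array, and the labels used here do not give the strain, the age, the sorting markers, the number of mice in an array or how Tlr3, which encodes an endosomal receptor for double-stranded RNA, was disrupted.

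Platelets are cell fragments without a nucleus that circulate in blood and carry RNA made in their parent megakaryocytes, some of which lodge in lung capillaries. They adhere to damaged vessels through the glycoprotein Ib-IX-V complex, which binds von Willebrand factor, and aggregate through integrin alphaIIb-beta3, which binds fibrinogen. On activation they release alpha granules, which hold the chemokines platelet factor 4 and pro-platelet basic protein, and they expose the receptor TLT-1, the product of Treml1. These genes are not known as genes of alveolar epithelium, although Itgb3 also has other partners and is made by other cell types.

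Promoter sequence was available for 7 of the 8 genes (RefSeq, GRCm38.p6), and the 250 bases before each start were searched for letters that factors of the megakaryocyte lineage are known to bind. The GATA letters AGATAA or AGATAG or TGATAA or TGATAG, on both strands, were in 2 of the 7 windows (Gp1ba and Gp5) and in 26.5% of all 32851 promoters. The ETS letters AGGAAG or CGGAAG, on both strands, were in 5 of the 7 (Gp1ba, Gp5, Gp9, Itga2b and Pf4) and in 39.2% of all. The NF-E2 letters TGACTCA or TGAGTCA, on both strands, were in 0 of the 7 and in 4.46% of all. The letters TATAAA, read on the gene's strand, were in 1 of the 7, Ppbp, and in 7.59% of all. A match is a description of letters, not of a bound site. No motif overlapped another in the stretches printed here. They show the chemokine pair that lies side by side on chromosome 5 and the 2 genes with GATA letters, with the GATA, ETS and TATA matches in capitals. They are Pf4 at chr5:90772185-90772434 and Ppbp at chr5:90768268-90768517 on the plus strand, Gp1ba at chr11:70638872-70639101 on the plus strand and Gp5 at chr16:30310782-30311031 on the minus strand. The Gp1ba stretch stops 21 bases before the start used, because the annotated gene begins there, and its ETS match and the last of its 3 GATA matches lie in or across the part left out.
Pf4: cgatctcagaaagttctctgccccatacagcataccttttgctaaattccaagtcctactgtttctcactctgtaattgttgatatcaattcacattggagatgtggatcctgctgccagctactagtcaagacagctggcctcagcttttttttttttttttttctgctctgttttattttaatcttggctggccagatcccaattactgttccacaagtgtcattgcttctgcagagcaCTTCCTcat
Ppbp: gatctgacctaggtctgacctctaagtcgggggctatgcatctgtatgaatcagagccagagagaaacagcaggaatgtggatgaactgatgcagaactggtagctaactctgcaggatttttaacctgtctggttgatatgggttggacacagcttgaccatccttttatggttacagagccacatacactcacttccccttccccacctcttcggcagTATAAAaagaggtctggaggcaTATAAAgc
Gp1ba: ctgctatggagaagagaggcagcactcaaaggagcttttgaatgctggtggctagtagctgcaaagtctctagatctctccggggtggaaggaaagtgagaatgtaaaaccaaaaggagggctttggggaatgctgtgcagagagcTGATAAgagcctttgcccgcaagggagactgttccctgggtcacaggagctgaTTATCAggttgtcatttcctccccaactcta
Gp5: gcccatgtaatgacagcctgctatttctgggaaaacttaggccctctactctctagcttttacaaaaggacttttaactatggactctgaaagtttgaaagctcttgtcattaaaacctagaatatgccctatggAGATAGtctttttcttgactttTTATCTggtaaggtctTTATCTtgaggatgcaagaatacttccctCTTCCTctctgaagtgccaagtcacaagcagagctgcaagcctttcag
Ppbp had its TATAAA matches at 30 and 8 bases before the start. Gp5 had GATA letters at 115, 93 and 77 bases before the start and an ETS match at 48, and Pf4 had its ETS match at 9.

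Levels are log2 spot intensities minus the log2 of the array's 75th percentile, so a level of 0 is the 75th percentile, and levels are compared between arrays and not between probes. Where 4 levels of a gene are listed without their groups, they run from WT to Tlr3-deficient mice and, within each genotype, from no tumor to tumor. That percentile was between 555 and 904 intensity units, and 61.0% to 65.4% of gene spots were well above background, the scanner program's own call. All 12 alveolar type II markers were well above background on all 4 arrays, with no difference of 2-fold between any 2 groups compared. Tlr3 was lower in the Tlr3-deficient arrays, at -5.45 (not well above background) and -5.30, than in the WT arrays, at -3.93 and -3.94. The array labelled Tlr3-deficient without tumor went against its label of female. Xist was at -4.05 on it and between 3.80 and 4.05 on the others, and Ddx3y, Eif2s3y, Kdm5d and Uty, all on the Y chromosome, were well above background on that array alone. It is used here as labelled, and the effect of tumor in WT mice and the comparison of genotypes with tumor do not rest on it. The array of WT mice with tumor and that of Tlr3-deficient mice without tumor were on 1 slide, and the others on a slide each, so in the 4 comparisons of the design the slide cannot be told apart from the group. No array is repeated, so the errors given are those of the spots: the scanner's error model for 1 gene, and the SD of log2 differences over repeated spots of 170 probes, which was 0.31 in WT mice, 0.11 in Tlr3-deficient mice, 0.30 between genotypes without tumor and 0.11 with tumor. Neither holds the spread between mice.

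**Figure D1:**
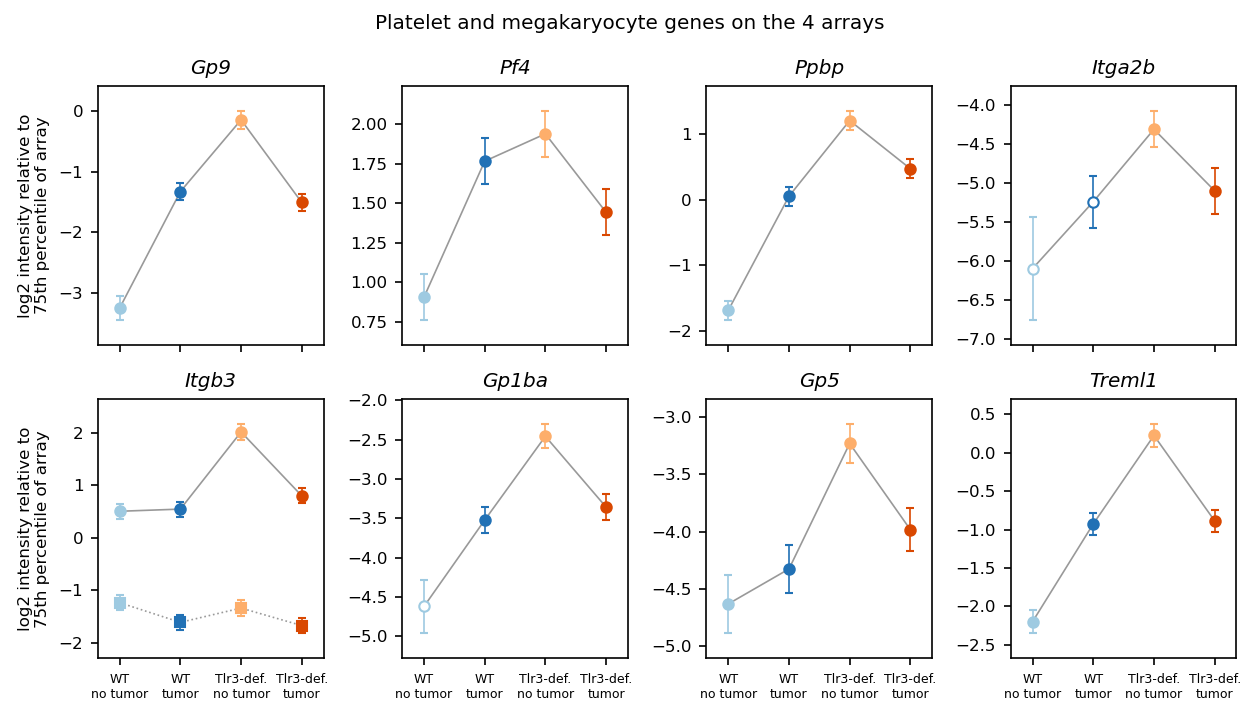
Level of each of the 8 genes on the 4 arrays (vertical axes: log2 intensity relative to the array's 75th percentile, on a scale of its own in each panel; bars: scanner error of the spot; open circles: not well above background; squares: the second Itgb3 probe; lines only join the arrays). In all 8 panels the WT array without tumor is lowest and the Tlr3-deficient array without tumor highest, except for the second Itgb3 probe.

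The 8 genes shared 1 shape across the arrays: each was lowest in WT mice without tumor and highest in Tlr3-deficient mice without tumor, with both tumor-bearing groups between, except that Gp5, Itgb3 and Itga2b were not lowest there under some of the other settings. Among 15798 genes that every array measured well above background, a set without Itga2b and Gp1ba, 7.25% had the same lowest and highest array. Gp5, Gp1ba, Itga2b, Itgb3, Ppbp and Treml1 were lower in WT mice with tumor than in Tlr3-deficient mice with tumor, and Gp9 and Pf4 the other way round, in every case by 0.42 or less on the log2 scale. Well above background were 6 of the 8 genes in WT mice without tumor, 7 in WT mice with tumor, and 8 on each Tlr3-deficient array. In RNA from a sorted population, more cells or fragments of a type and more RNA in each of them cannot be told apart.

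The glycoprotein Ib-IX-V complex held the gene with the largest differences, Gp9. Gp9, the subunit needed for the complex to reach the surface, was read at chr6:87729650-87729709 (mm9, plus strand; each position below is that of the probe in the same build). Its level was -3.25 in WT mice without tumor, -1.33 in WT mice with tumor, -0.14 in Tlr3-deficient mice without tumor and -1.51 in Tlr3-deficient mice with tumor, from intensities of 58.4, 317, 686 and 318 in that order. The groups with tumor lay close together and the groups without tumor lay at the ends. Tumor went with a 3.78-fold higher level in WT mice (log2 difference 1.92, scanner error 0.25) and a 2.57-fold lower one in Tlr3-deficient mice (-1.36, error 0.21). Without tumor the Tlr3-deficient array was 8.60-fold above the WT array (3.10, error 0.25), the largest difference among the 8 genes in the 4 comparisons, and with tumor the 2 differed by -0.18 (error 0.21).

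Gp1ba, the subunit that binds von Willebrand factor, was read at chr11:70455415-70455474 (plus strand). It was not well above background in WT mice without tumor, where it measured -4.62, and was at -3.52 in WT mice with tumor, -2.46 in Tlr3-deficient mice without tumor and -3.36 in Tlr3-deficient mice with tumor. With the dim value as a bound, it was at least 2.14-fold higher in tumor-bearing WT mice and at least 4.47-fold higher in Tlr3-deficient than in WT mice without tumor. In Tlr3-deficient mice the tumor difference was -0.90 (error 0.22), under 2-fold. The call in WT mice was lost under 4 other ways of scaling or background correction, where the difference was between 0.26 and 0.95. Normexp put the genotype difference without tumor at 2-fold. Gp5, the subunit that thrombin cleaves, was read at chr16:30308347-30308406 (minus strand), at -4.63, -4.33, -3.23 and -3.98. All 4 values were well above background but near the dim end, and the array of Tlr3-deficient mice without tumor stood above the rest. It was 2.64-fold above WT without tumor (1.40, error 0.31), while the tumor differences were 0.31 (error 0.33) in WT and -0.75 (error 0.25) in Tlr3-deficient mice. That of WT mice was at or below 0 with quantile normalization (-0.0065), in the authors' value table (-0.0057) and with normexp background correction (-0.25). Normexp also put its genotype difference without tumor under 2-fold, at 0.44.

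The integrin genes differed from each other in signal. Itga2b, the alpha chain confined largely to the megakaryocyte lineage, was read by a probe spanning chr11:102319453-102319661 (minus strand). It was not well above background on either WT array, at -6.09 without and -5.24 with tumor, and was at -4.31 and -5.10 in Tlr3-deficient mice without and with tumor. Its level in Tlr3-deficient mice without tumor was at least 1.92-fold that of WT mice, which is under the 2-fold criterion (a difference of 0.17 with normexp), and tumor in Tlr3-deficient mice gave -0.79 (error 0.38). In WT mice with and without tumor no fold can be given for it, and the measured difference of 0.86 (error 0.74) became -0.23 with normexp background correction.

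Itgb3, the beta chain, has 2 probes, and they disagreed. The brighter one, at chr11:104531672-104531731 (plus strand), stood for the gene and was at 0.50, 0.54, 2.01 and 0.80. Here 3 arrays lay between 0.50 and 0.80 and Tlr3-deficient without tumor stood apart: 2.85-fold above WT without tumor (1.51, error 0.20), and 2.32-fold higher than with tumor in the same genotype (-1.22, error 0.20). The tumor difference in WT mice was 0.04 (error 0.20), and -0.11 with median centring. The second probe, at chr11:104528490-104528560, was at -1.24, -1.61, -1.34 and -1.68, a range of 0.44. Its differences were -0.37 (error 0.21) for tumor in WT, -0.33 (error 0.21) for tumor in Tlr3-deficient mice and -0.10 (error 0.21) between genotypes without tumor. Averaging the probes put the gene's differences under 2-fold, at -0.78 for tumor in Tlr3-deficient mice and 0.70 between genotypes without tumor.

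Treml1, a receptor stored in alpha granules and found on activated platelets, was read at chr17:48506365-48506424 (plus strand). Its level was -2.20 in WT mice without tumor, -0.93 in WT mice with tumor, 0.23 in Tlr3-deficient mice without tumor and -0.89 in Tlr3-deficient mice with tumor. As for Gp9, the tumor-bearing groups nearly coincided and the groups without tumor lay on either side. Tumor went with a 2.41-fold higher level in WT mice (1.27, error 0.21) and a 2.16-fold lower one in Tlr3-deficient mice (-1.11, error 0.20). Without tumor the Tlr3-deficient array was 5.36-fold above the WT array (2.42, error 0.21), and with tumor the difference was 0.04 (error 0.21). With normexp both tumor differences were under 2-fold, at 0.87 and -0.95.

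The chemokines of the alpha granule differed in range. Pf4, platelet factor 4, which binds heparin, was read at chr5:91202275-91202334 (plus strand), at 0.91, 1.77, 1.94 and 1.44, from intensities of 1040, 2710, 2910 and 2460. It had the smallest range of the 8 genes, 1.03, and the array of WT mice without tumor was the one that stood apart. Only the comparison of genotypes without tumor reached 2-fold for it, at 2.05-fold (1.03, error 0.20), and median centring put that at 0.94 and normexp at 0.86. The tumor differences were 0.86 (error 0.20) in WT and -0.50 (error 0.20) in Tlr3-deficient mice. Ppbp, the precursor of a chemokine that draws neutrophils, was read at chr5:91198970-91199029 (plus strand), at -1.68, 0.05, 1.20 and 0.47. It was 3.32-fold higher with tumor in WT mice (1.73, error 0.21) and 7.36-fold higher in Tlr3-deficient than in WT mice without tumor (2.88, error 0.21). With tumor in Tlr3-deficient mice it measured -0.73 (error 0.20). On the array of WT mice without tumor the spots in columns 1 to 51 were noisier than the rest, with an SD over repeated spots of 0.37 for the tumor difference against 0.11 in columns 52 to 85. Ppbp, in column 64, lay in the quieter part, as did the second Itgb3 probe in column 82, and the probes that stand for the other 7 genes lay in the noisier part.

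**Figure D2:**
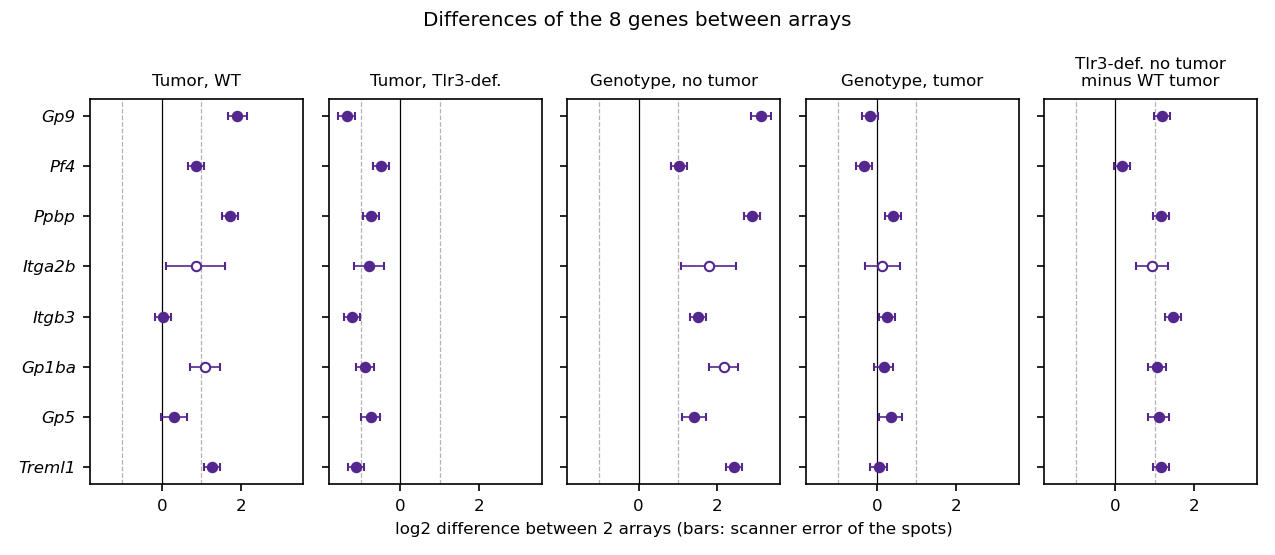
Differences of the 8 genes in the 4 comparisons of the design and in the pair of arrays that shared a slide (horizontal axes: log2 difference between 2 arrays; bars: scanner error; open circles: not well above background on 1 or both of the arrays; dashed lines: 2-fold). The genes lie to the right for tumor in WT and for genotype without tumor, to the left for tumor in Tlr3-deficient mice, and around 0 for genotype with tumor.

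In WT mice, tumor went with higher levels of 4 of the 7 genes that could be compared, Gp9, Ppbp, Treml1 and Gp1ba, and none was lower. Of all genes compared, 5.66% were at least 2-fold higher and 1.56% lower. The median difference of the 8 genes was 0.98, beside a median of 0.00037 over all genes. In this comparison the neutrophil markers were all 2-fold higher, 11 of 11, and so were 8 of 8 pan-leukocyte markers and 5 of the 10 erythroid markers compared. Summed over the list, the neutrophil level was 3.91 without and 107 with tumor, and the erythroid level was 384 without and 637 with tumor, in multiples of the array's 75th percentile. The erythroid sum came mostly from the hemoglobin genes Hba-a1 and Hbb-bt. The part of neutrophils, other leukocytes and red cells in the platelet gene levels was not tested.

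In Tlr3-deficient mice, tumor went with lower levels of 3 of 8 genes, Gp9, Itgb3 and Treml1, and the other 5 measured between -0.90 and -0.50. Lower by 2-fold were 3.9% of all genes compared, and 4.5% were higher. The median of the 8 genes was -0.84, beside -0.0082 over all genes. Neutrophil markers did not share that direction: 10 of 11 were 2-fold higher, with a summed level of 3.53 without and 68.6 with tumor, as were 8 of 8 pan-leukocyte markers. Erythroid markers did: 3 of the 8 compared were lower (Ermap, Alas2 and Hba-a1) and none higher, and their sum was 644 without and 306 with tumor. The part of red cell RNA in these differences was not tested. The arrays of this comparison also differ in slide and in the sex-linked genes, and these cannot be told apart from tumor.

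Between genotypes without tumor, 7 of 8 genes were higher in Tlr3-deficient mice, all except Itga2b, whose bound was under 2-fold. Of all genes compared 5.89% were that much higher and 2.34% lower. The median difference was 1.97 (1.84 with dim values at their bound), beside -0.043 over all genes. Erythroid markers were higher for 3 of the 7 compared. Neutrophil and pan-leukocyte markers had 0 genes higher, with summed levels of 3.91 and 3.53 for neutrophils and 1.64 and 1.51 for leukocytes in WT and Tlr3-deficient mice. Endothelial markers were higher for 1 of 14, Vwf (just under 2-fold with normexp, at 0.99), with a list median of 0.44. Both arrays of this comparison also differ in slide and in the sex-linked genes, and these cannot be told apart from genotype.

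Between genotypes with tumor, 0 of 8 genes differed by 2-fold, where 5.57% of all genes did in either direction. The 8 differences lay between -0.32 and 0.42, with a median of 0.15 beside -0.046 over all genes. Erythroid markers differed here: 8 of the 10 compared were lower in Tlr3-deficient mice, with Slc4a1 at -2.02 and Ahsp at -2.36, while Gp9 was at -0.18 and Treml1 at 0.04. The sum of the erythroid list was 637 in WT and 306 in Tlr3-deficient mice. The sum of the 8 platelet genes, which came mostly from Pf4 and Itgb3, was 6.99 and 6.92.

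The 2 arrays that shared a slide allowed a comparison free of slide, though not of genotype, tumor or the difference in sex-linked genes. Tlr3-deficient mice without tumor were at least 2-fold above WT mice with tumor for 6 of the 8 genes, where 4.7% of all genes were that much higher. These 6, Itgb3, Gp9, Treml1, Ppbp, Gp5 and Gp1ba, differed by 1.06 to 1.47, Itga2b was at least 1.90-fold higher, and Pf4 differed by 0.17 (error 0.20). With normexp Gp1ba (0.74), Gp5 (0.69) and Treml1 (0.97) were under 2-fold. Itgb3 was at 0.87 with the mean of its probes, and its second probe measured 0.27 (error 0.21). The count was 7 with quantile normalization. On this slide 11 of 11 neutrophil markers and 8 of 8 pan-leukocyte markers were lower in Tlr3-deficient mice without tumor, and 4 of 10 erythroid markers were lower. Endothelial markers were higher there for 5 of 14, and 7 of 14 with median centring, with none lower and a median of 0.89. The part of these markers in the platelet differences was not tested.

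**Figure D3:**
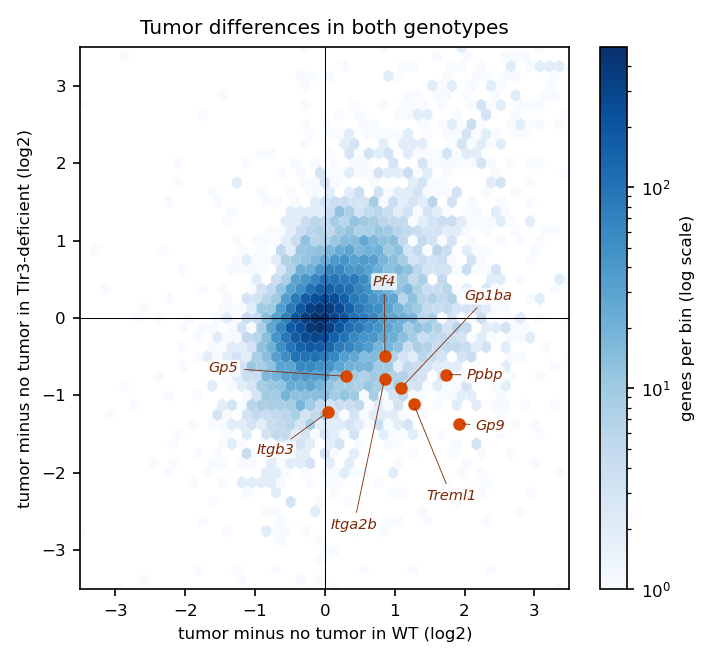
Tumor difference in WT mice (horizontal, log2) against that in Tlr3-deficient mice (vertical, log2) for 17270 genes, with colour for the number of genes in a bin (log scale) and the 8 genes as labelled points; 131 genes beyond 3.5 on either axis are not drawn. The 8 points lie in the lower right, right of 0 in WT and below 0 in Tlr3-deficient mice, with Itgb3 at 0.04 on the horizontal axis. With normexp background correction Gp5, Itga2b and Itgb3 would lie left of 0.

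The tumor differences in the 2 genotypes share no array. They do share a slide, which held the WT array with tumor and the Tlr3-deficient array without tumor, so that slide enters them with opposite signs. For the 8 genes the tumor differences ran opposite ways, and slide and the sex-linked genes cannot be told apart from this opposition. Exceptions were Gp5 under quantile normalization, in the authors' value table and with normexp, and Itga2b with normexp. Itgb3 was another, with median centring, normexp and the mean of its probes. Gp9 and Treml1 passed 2-fold upward in tumor-bearing WT mice and 2-fold downward in tumor-bearing Tlr3-deficient mice, a combination found for 0.249% of the 17270 genes compared in both. The tumor difference in Tlr3-deficient mice minus that in WT mice was -3.28 for Gp9, -2.46 for Ppbp, -2.38 for Treml1 and -1.99 for Gp1ba. It was -1.64 for Itga2b, -1.36 for Pf4, -1.26 for Itgb3 and -1.06 for Gp5. All 8 were below -1 on this scale. So were 4.52% of the genes well above background on every array, a set without Itga2b and Gp1ba. Under other settings 5 to 7 of the 8 were below -1. Gp5 was at -0.75 with quantile normalization and in the authors' value table, -0.92 with median centring and -0.35 with normexp. Itgb3 was at -0.61 with the mean of its probes, and with normexp Itga2b was at -0.23 and Gp1ba at -0.97. For the second Itgb3 probe it was 0.04 (error 0.29). Without replicate arrays this difference of differences could not be tested.

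Other platelet receptors followed in part. Of 16 listed, all were on the array and 9 were well above background on all 4 arrays. Between genotypes without tumor 7 of the 12 compared were higher in Tlr3-deficient mice and none lower. Among them were Clec1b, the podoplanin receptor CLEC-2 (2.68), Cd9, a tetraspanin (1.95), Tbxa2r, the thromboxane receptor (1.22), Gp6, the collagen receptor (1.16), and Cd226 (at least 3.03-fold) and P2rx1 (at least 2.79-fold), which were well above background on the array of Tlr3-deficient mice without tumor only. Clec1b had the levels -2.66, -1.26, 0.02 and -1.43, the same order of arrays as Gp9 and Pf4. With tumor in WT mice 2 of 11 were higher, Cd9 (1.89) and Clec1b (1.40), and with tumor in Tlr3-deficient mice 4 of 12 were lower, Cd226 (at least 3.40-fold), P2rx1 (at least 3.13-fold), Clec1b (-1.45) and Gp6 (-1.02). With tumor, 0 of 11 differed between genotypes. Cd9 is also made by many epithelial cells, measured -0.18 with tumor in Tlr3-deficient mice, and as the mean of its probes stayed under 2-fold in WT mice with tumor (0.84) and between genotypes without tumor (0.77). Clec1b was under 2-fold with tumor in WT mice with normexp (0.68). Gp6 was just under 2-fold between genotypes without tumor (0.99) after quantile normalization. Cd226 lost both calls with the mean of all probes, where tumor in Tlr3-deficient mice gave -0.94, and between genotypes without tumor it was at 0.81 with normexp. P2rx1 lost both calls with normexp, where it was at 0.65 between genotypes without tumor. Normexp left 2 receptors higher between genotypes without tumor and 2 lower with tumor in Tlr3-deficient mice. Over all 16 genes, dim ones included, the list's median was -0.15 for tumor in WT mice (at 0.00 with the mean of all probes), -0.66 for tumor in Tlr3-deficient mice, 0.72 between genotypes without tumor and -0.04 with tumor (0.03 after quantile normalization). Over the compared genes alone, with bounds for dim values, the medians were -0.24, -0.73, 1.19 and -0.04. Other receptors well above background on all arrays gave no such pattern: Gp1bb, the beta chain of glycoprotein Ib, was at -3.10, -3.55, -3.03 and -3.59, P2ry1 at -3.12, -3.48, -3.53 and -4.02, and Esam and Pear1 differed by 0.40 or less in every comparison.

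Several genes of granule proteins are also made by endothelium, macrophages or other lung cells, and Vwf and Selp stand in the endothelial list too. Their medians were 0.25 for tumor in WT mice (-0.01 with normexp), -0.36 for tumor in Tlr3-deficient mice, 0.67 between genotypes without tumor and 0.13 with tumor. Of 12, all were compared, and 1 was higher with tumor in WT mice, F13a1, a coagulation factor chain also made by macrophages (1.82). In Tlr3-deficient mice F13a1 (1.30) and Selp, P-selectin (1.05), were higher with tumor, and Sparc (-1.46) and Pdgfb (-1.08) lower. With normexp F13a1 was under 2-fold in WT (0.52) and in Tlr3-deficient mice (0.71), as were Selp (0.32) and Pdgfb (-0.92) in the latter. Pdgfb was also under 2-fold with the mean of all probes (-0.98). Vwf, von Willebrand factor of platelets and endothelium, was at 1.88, 2.75, 3.08 and 3.81, highest in Tlr3-deficient mice with tumor, where the 8 genes were not at their highest. It differed between genotypes both without (1.20, and 0.99 with normexp) and with tumor (1.06). Mmrn1, multimerin of platelets and endothelium, was at -2.26, -1.94, -1.28 and -1.73, with the same lowest and highest array as the 8 genes and a genotype difference of 0.98, under 2-fold. Clu, Pdgfa, Srgn, Tgfb1 and Thbs1 stayed under 2-fold in all 4 comparisons, between -0.49 and 0.71.

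Genes of platelet signalling and enzymes held both kinds of pattern, and Tubb1 was not found by name on the array. Their medians were 1.08 for tumor in WT mice, 0.05 for tumor in Tlr3-deficient mice (-0.06 with the mean of all probes), 1.16 between genotypes without tumor and 0.25 with tumor. Of the other 11, 6 were higher with tumor in WT mice: Bin2 (2.05), Plek (2.83-fold), Rgs18 (at least 2.36-fold), Slc35d3 (1.19), Tbxas1 (1.12) and Ptgs1 (1.08). That count was 3 with quantile normalization, where Rgs18 (0.97), Slc35d3 (0.97) and Tbxas1 (0.90) were under 2-fold, and 3 in the authors' value table. It was 4 with median centring, without Tbxas1 (0.97) and Ptgs1 (0.94), 5 with the mean of all probes and 1 with normexp. Rgs18 was at 0.16 with normexp. Between genotypes without tumor 6 were higher, Rgs18 (at least 6.12-fold), Alox12 (1.70), Fermt3 (at least 2.67-fold), Plek (1.35), Bin2 (1.31) and Ptgs1 (1.16). The count was 2 with normexp, where Rgs18 (0.89), Fermt3 (0.37), Plek (0.85) and Bin2 (0.21) were under 2-fold. Between genotypes with tumor 0 of 11 differed. Rgs18, a regulator of G-protein signalling in platelets and megakaryocytes, was lower with tumor in Tlr3-deficient mice (-1.12), a call lost with the mean of all probes (-0.96) and with normexp (-0.76). Slc35d3, a transporter-family gene needed for platelet dense granules, was higher with tumor there too (1.12), from -4.40 to -3.28, though not with normexp (0.41), and no other of the 11 passed 2-fold in that comparison. Alox12, platelet 12-lipoxygenase, was at -2.51, -1.65, -0.81 and -1.17, the order of arrays that Ppbp and Treml1 had. Plek, at -2.55, -1.05, -1.20 and -0.93, and Bin2, at -4.42, -2.37, -3.10 and -2.20, are also made by leukocytes, and both were highest in Tlr3-deficient mice with tumor. Ptgs1, cyclooxygenase 1, was also highest there, at 5.15. Nbeal2, Rab27b and Rasgrp2 stayed between -0.21 and 0.41.

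Transcription factors of the megakaryocyte lineage had medians of 0.30 for tumor in WT mice (-0.15 with normexp), 0.06 for tumor in Tlr3-deficient mice, 0.62 between genotypes without tumor and 0.13 with tumor; over the compared genes, with bounds, the first of these was 0.17. Of 8, 1 passed 2-fold in any comparison: Fli1, an ETS factor, higher in Tlr3-deficient mice without tumor (1.04, and 0.94 with median centring), at -1.81, -1.65, -0.77 and -1.27 on the 4 arrays. Fli1 is also a factor of endothelium. Gata1 was well above background only in WT mice with tumor, and Gfi1b on no array. Meis1 measured 0.97 between genotypes without tumor, and Nfe2 0.93 and 0.96 with tumor in WT and Tlr3-deficient mice. Runx1, Tal1 and Zfpm1 lay between -0.41 and 0.78 in all 4 comparisons.

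The CXC chemokine genes near Pf4 and Ppbp on chromosome 5 did not share their pattern. Cxcl5, a neutrophil attractant, was not well above background in WT mice without tumor (-5.36) and was at -1.52 in WT mice with tumor, -5.05 in Tlr3-deficient mice without and -3.88 with tumor. It was 2-fold higher with tumor in both genotypes, though not in Tlr3-deficient mice with normexp (0.23). With tumor it was lower in Tlr3-deficient than in WT mice (-2.36). Cxcl2 was higher with tumor in Tlr3-deficient mice (1.18, but 0.19 in the authors' value table and 0.69 with normexp). Cxcl1, Cxcl3 and Cxcl15 measured between -0.59 and 0.71.

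**Figure D4:**
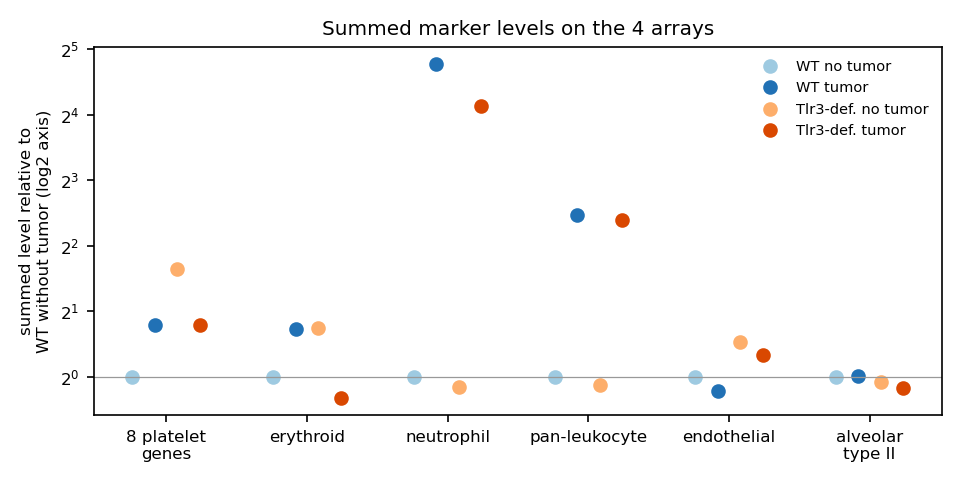
Summed level of 6 marker lists on the 4 arrays, relative to WT without tumor (vertical axis, log2 spacing; 1 point per array). The platelet genes and the endothelial list stand highest in Tlr3-deficient mice without tumor. So does the erythroid list, nearly level with WT mice with tumor. The neutrophil and pan-leukocyte lists stand low on both arrays without tumor. The erythroid list separates the 2 tumor-bearing arrays that the platelet genes do not.

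The summed level of the 8 genes was 4.02 in WT mice without tumor, 6.99 in WT mice with tumor, 12.6 in Tlr3-deficient mice without tumor and 6.92 in Tlr3-deficient mice with tumor, so the highest sum was 3.13 times the lowest. On every array this sum came mostly from Pf4 and Itgb3, the latter read by its brighter probe, with which its second probe disagreed. Endothelial sums were 50.2, 43.0, 72.5 and 63.6 in that order, with both Tlr3-deficient arrays above both WT arrays. The endothelial list had medians of -0.41 and -0.35 for tumor in WT and in Tlr3-deficient mice and of 0.44 and 0.51 between genotypes without and with tumor. Erythroid sums were 384, 637, 644 and 306. The erythroid sums of WT mice with tumor and of Tlr3-deficient mice without tumor were thus near each other. The platelet sums there were 6.99 and 12.6. The erythroid sums came mostly from Hba-a1 (7.86 and 8.03 on these arrays) and Hbb-bt (8.61 and 8.54). Over the erythroid list the median of Tlr3-deficient mice without tumor minus WT mice with tumor was -0.95. Of the 10 erythroid genes compared there, 4 were lower and 0 higher. The erythroid sums of the 2 tumor-bearing groups were apart, where the platelet sums were 6.99 and 6.92. Alveolar type II sums were 1858, 1873, 1768 and 1648.

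The genes whose levels ran most like those of the platelet genes were sought among 15792 other genes well above background on all 4 arrays, by the Euclidean distance of a gene's 4 levels, centred on their mean, from the mean centred levels of Gp9, Pf4, Ppbp, Itgb3, Gp5 and Treml1 (-1.05, -0.03, 1.01 and 0.07). The 10 nearest, at distances of 0.22 to 0.39, included Snai1, the unnamed transcript TC1645771, Mpped2, Pdzd2, Cep128, Top2a, Lphn3, Klk1b4 and Gm21706. Most genes that made the mean lay farther from it: Gp9 (0.80), Pf4 (0.79), Ppbp (0.78), Itgb3 (0.75) and Gp5 (0.56), with Treml1 at 0.26. Of the other listed platelet genes Alox12 was at rank 17 and Clec1b at rank 22, Gp6 at rank 658 and Gp1bb at rank 6994. These ranks rest on 4 values a gene and describe likeness on these arrays only.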

How the data were processed

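RNA of 4 mouse groups was labelled with Cy3 and read on 1 Agilent 1-colour array each. The authors deposited scanner files of spot intensity from Agilent Feature Extraction 10.7.3.1, background-subtracted and detrended, per the file headers, and not scaled between arrays. The authors also deposited a table of log2 values, the making of which is not described in any source used here. Its columns correlated with the scanner values at 0.9995 to 0.9998 and had medians of 6.31, so its scale and direction are those of log2 intensity, without centring of genes.

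Control spots and outlier flags were left out, log2 intensity was set against each array's 75th percentile, and repeated spots were averaged. Probes were named by the RefSeq symbol of their accession where 1 matched, for 27654 of 41158, and otherwise by the name in the files. A gene was represented by its brightest probe on average. A probe was well above background where at least 50% of its spots were. A gene was compared where it was so on at least 1 of the 2 arrays. Where it was so on 1 only, the dim side was set to the higher of its own value and the lowest level of any probe well above background, which gives "at least" folds. A call was a difference of 2-fold or more. With 1 array per group no p-value exists; the number of arrays limits all precision.

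The genes and lists were chosen with earlier results of these data known. Named are all 8 genes, called genes of the other lists and those well above background on all arrays, and genes among the 10 nearest profiles. 1 gene that this rule names is not reported here. Alternatives were quantile normalization, median centring, normexp background correction (limma 3.58.1, offset 50), the mean of all probes, the authors' table, dim values at their bound and no filter. The calling steps were tested on simulated data.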

Additional observations from a re-analysis of the deposited data

Results flagged for a closer look

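For each of the 8 genes the tumor difference was above 0 in WT mice and below 0 in Tlr3-deficient mice, on 1 array per group, and this opposition was not tested. The second difference less the first was -3.28 for Gp9, -1.36 for Pf4, -2.46 for Ppbp and -1.64 for Itga2b. It was -1.26 for Itgb3, -1.99 for Gp1ba, -1.06 for Gp5 and -2.38 for Treml1. Of all genes well above background on every array, a set without Itga2b and Gp1ba, 4.52% had a difference of -1 or lower. Under other settings 5 to 7 of the 8 genes had such a difference. For Itgb3 and Gp5 the WT difference (0.04 and 0.31) was within its scanner error (0.20 and 0.33), and for Itga2b both WT values were not well above background. The second Itgb3 probe did not show the opposition, at -0.37 in WT and -0.33 in Tlr3-deficient mice. The WT array with tumor and the Tlr3-deficient array without tumor shared a slide, which enters the tumor differences with opposite signs. Slide and the sex-linked genes cannot be told apart from the opposition.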

How the results depend on the processing

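The medians over the 8 genes kept their direction in all 4 comparisons under quantile normalization, median centring, normexp background correction, the authors' value table, the mean of all probes, and dim values at their bound. Normexp makes a background correction of its own and adds an offset to every signal. It moved the medians most, to 0.46 for tumor in WT mice and -0.68 for tumor in Tlr3-deficient mice. Between genotypes it gave 1.21 without tumor and 0.028 with tumor. It also left 2 of the 8 genes 2-fold higher with tumor in WT mice, where the other alternatives gave 3 or 4. The number 2-fold different was 2 or 3 for tumor in Tlr3-deficient mice, 5 to 8 between genotypes without tumor and 0 with tumor. Of 160 single-gene values, 152 kept their direction; a turned direction was found in 0 of the 172 called differences of all lists, and 76 of them were under 2-fold with normexp and 8 to 13 under each of the other settings that rescale or re-average the values. Median centring moved the median of all genes to -0.15 for tumor in WT mice and -0.14 between genotypes without tumor. It took the share of calls that were higher in WT mice with tumor from 78.4% to 63.6%; quantile normalization gave 66.4%. Slide as a block could not be fitted with 4 arrays on 3 slides. No paired analysis was possible because each group has 1 array. Dim probes (Itga2b, Gp1ba, Gp5) are limited by their signal over background.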
